A study of Mus musculus with 12 samples.

Results

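The serpins, the kallikreins and the plasminogen activators with their receptor were taken as every probe whose gene name in the scanner tables begins with Serpin, is Klk followed by a number, or is Plat, Plau or Plaur. This gave 113 of 41174 probes and 86 of 21179 named genes, namely 59 serpins (78 probes), 24 kallikreins (28 probes) and 3 plasminogen activator genes (7 probes). RNA came from mouse embryonic stem cells that were either kept undifferentiated or exposed to retinoic acid, a vitamin A derivative that makes such cells differentiate, for 3 days. Each of the 2 groups held 3 biological samples, and each sample was hybridised to 2 one-colour Cy3 arrays. The cell line, the dose of retinoic acid and the presence of feeder cells are not given in the sources used here. The labels call the samples biological replicates without saying how they were grown, so p-values here reflect only how much these samples vary.

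Plasminogen activators are serine proteases that cut plasminogen into plasmin, a broad protease that dissolves fibrin and loosens extracellular matrix, and secretion of plasminogen activator is a long-used sign of retinoic acid differentiation in teratocarcinoma cells. Serpins are a family of proteins most of which trap serine proteases in a covalent complex by a bait loop, although some members, such as the collagen chaperone Serpinh1, inhibit no protease. Kallikreins are secreted trypsin-like or chymotrypsin-like proteases whose genes lie side by side, and in the mouse the Klk1 branch has expanded into many near-identical Klk1b copies.

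Levels are log2 of the quantile-normalized intensity plus 50, one value per gene from its brightest probe (that with the highest mean log2 over all arrays), and a difference is the mean of the 3 retinoic acid samples minus the mean of the 3 undifferentiated samples, given ± its standard error. The added 50 understates the change of dim genes. The background limit of an array is the 95th percentile over its negative controls, and a gene entered the test when its probe passed this limit on 4 or more of the 6 arrays in one group or the other. It was called higher or lower at an adjusted p under 0.05 (limma, Benjamini-Hochberg over all 15325 genes tested). Levels of different genes come from different probes and were not compared with each other.

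The arrays had median intensities of 37.4 to 96.6 before normalization, and 53.8% to 85.0% of the probes exceeded the limit on an array. Of the 8 markers of pluripotent cells, 7 fell, with Tdgf1 (-5.83), Esrrb (-4.86) and Pou5f1 (-4.72) changing most, and all 8 were above the background limit defined above on every undifferentiated array. The median absolute difference between the technical arrays of a sample was 0.049 to 0.115 over the members.

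Both plasminogen activators and 4 serpins rose, and 6 serpins and 5 kallikreins fell. Of the 86 genes, 36 were tested: 21 serpins, 12 kallikreins and all 3 plasminogen activator genes. Among all genes tested 18.7% were called higher and 13.6% lower. Of the serpins tested, 4 were called higher (19.0%), 6 lower (28.6%) and 11 neither, with a median difference of -0.16. Of the kallikreins tested, none was called higher by limma, 5 were called lower (41.7%) and 7 neither, with a median of -0.35. At an unadjusted limma p under 0.05, 0 of the 12 were higher and 5 lower. Of all genes tested 42.8% passed that threshold, counting both directions. Plat and Plau were called higher and Plaur neither. The median over all genes tested was 0.0036. Groups did not overlap, with retinoic acid higher, for 7 of the 36 members tested, while this held for 25.7% of all genes tested. With retinoic acid lower, they did not overlap for 12 of the 36, while this held for 20.8% of all genes tested.

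The filter on dim probes shapes these counts. Of the 36 genes, 25 passed it in both groups. Klk1, Klk1b4, Serpinb1a, Serpinb1b, Serpinb1c and Serpinb3d passed only through the undifferentiated arrays, and Plau, Klk14, Klk15, Serpina3j and Serpinb7 only through the retinoic acid arrays, so genes of these lists could pass by being high in 1 group. The other 50 members were not tested, and 6 of the 86 (Klk1b11, Klk1b26, Serpina1b, Serpina3n, Serpinb9b and Serpind1) exceeded the limit on no array. No member reached 40000 in intensity, where the scanner's range ends shortly above. The arrays measure the RNA of whole cultures, so fewer cells of a type and less RNA per cell cannot be told apart.

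Plat, which encodes tissue-type plasminogen activator, rose more than any other member tested. It stood at 7.32, 7.76 and 7.15 in the undifferentiated samples and at 11.63, 11.37 and 11.51 after retinoic acid, a difference of 4.09 ± 0.19 (limma adjusted p = 1.21e-05). All 3 retinoic acid samples lay far above all 3 undifferentiated samples. A second, dimmer probe of Plat went from 6.01, 6.06 and 6.18 to 9.39, 8.50 and 9.08, a difference of 2.91, and the third, which is listed under a separate cDNA record, differed by 0.55. Each of the 3 probes was called higher when all probes were tested.

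Plau, which encodes urokinase, was near background in undifferentiated cells and measurable after retinoic acid. Its levels were 5.94, 5.91 and 5.81 before and 7.58, 7.70 and 8.0 after, a difference of 1.87 ± 0.16 (limma adjusted p = 0.000139). The probe exceeded the limit on 1 of 6 undifferentiated arrays and on all 6 retinoic acid arrays, so the rise is understated on this scale. A second Plau probe, at 5.88, 5.93 and 5.87 before and 6.04, 6.0 and 6.37 after, was too dim to be tested, with a difference of 0.25. Its 3 retinoic acid samples also lay above the 3 undifferentiated ones.

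Plaur, the receptor that holds urokinase at the cell surface, varied between samples of one group rather than between groups. Its brighter probe read 11.70, 13.93 and 13.02 in undifferentiated samples and 14.17, 12.14 and 13.68 after retinoic acid. The difference was 0.45 ± 0.65 (limma adjusted p = 0.655), with a 95% interval of -1.07 to 1.96, and the groups overlapped over most of their range. The dimmer Plaur probe read 9.12, 9.20 and 7.83 before and 7.87, 8.61 and 8.36 after, a difference of -0.43 that was not called. The probes thus put the samples in different orders, and no direction is given for Plaur.

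Serpinf1, Serpinh1, Serping1 and Serpine2 were the serpins that rose. They belong to 4 clades of the family, and none is a member of the large clades A and B. Serpinf1 encodes pigment epithelium-derived factor, a secreted protein that inhibits no protease and restrains blood vessel growth. Its levels were 7.38, 8.46 and 6.84 in undifferentiated samples and 11.18, 11.27 and 11.34 after retinoic acid, a difference of 3.70 ± 0.37 (limma adjusted p = 0.000267). The undifferentiated samples were spread over more than 1 log2 unit while the retinoic acid samples lay close together, and the groups were well apart. A second Serpinf1 probe gave 7.46, 7.47 and 6.78 before and 9.77, 9.40 and 10.55 after, a difference of 2.67 that was also called.

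Serpinh1 encodes the collagen chaperone HSP47, which binds procollagen in the endoplasmic reticulum. It went from 10.14, 10.71 and 11.16 to 13.68, 13.33 and 13.52, a difference of 2.84 ± 0.26 (limma adjusted p = 0.000182). Every retinoic acid sample was above every undifferentiated sample by more than 2 log2 units.

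Serping1 encodes the C1 inhibitor, which blocks the first complement proteases, plasma kallikrein and factor XII. It went from 8.28, 8.38 and 8.41 to 10.005, 10.27 and 10.32, a difference of 1.84 ± 0.15 (limma adjusted p = 0.000111). Both groups were tight and did not overlap.

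Serpine2 encodes protease nexin-1, a cell-surface inhibitor of thrombin, urokinase and tissue-type plasminogen activator. It went from 7.49, 7.71 and 7.69 to 9.17, 8.96 and 9.36, a difference of 1.53 ± 0.17 (limma adjusted p = 0.000376). All 3 retinoic acid samples were higher.

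Serpini1, or neuroserpin, the inhibitor of tissue-type plasminogen activator in the nervous system, fell from 8.54, 8.64 and 8.63 to 7.09, 7.25 and 7.01. The difference was -1.49 ± 0.15 (limma adjusted p = 0.000248), with tight groups that did not overlap. Serpinb2, or plasminogen activator inhibitor 2, exceeded the limit on 1 of 12 arrays and was not tested.

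**Figure D1:**
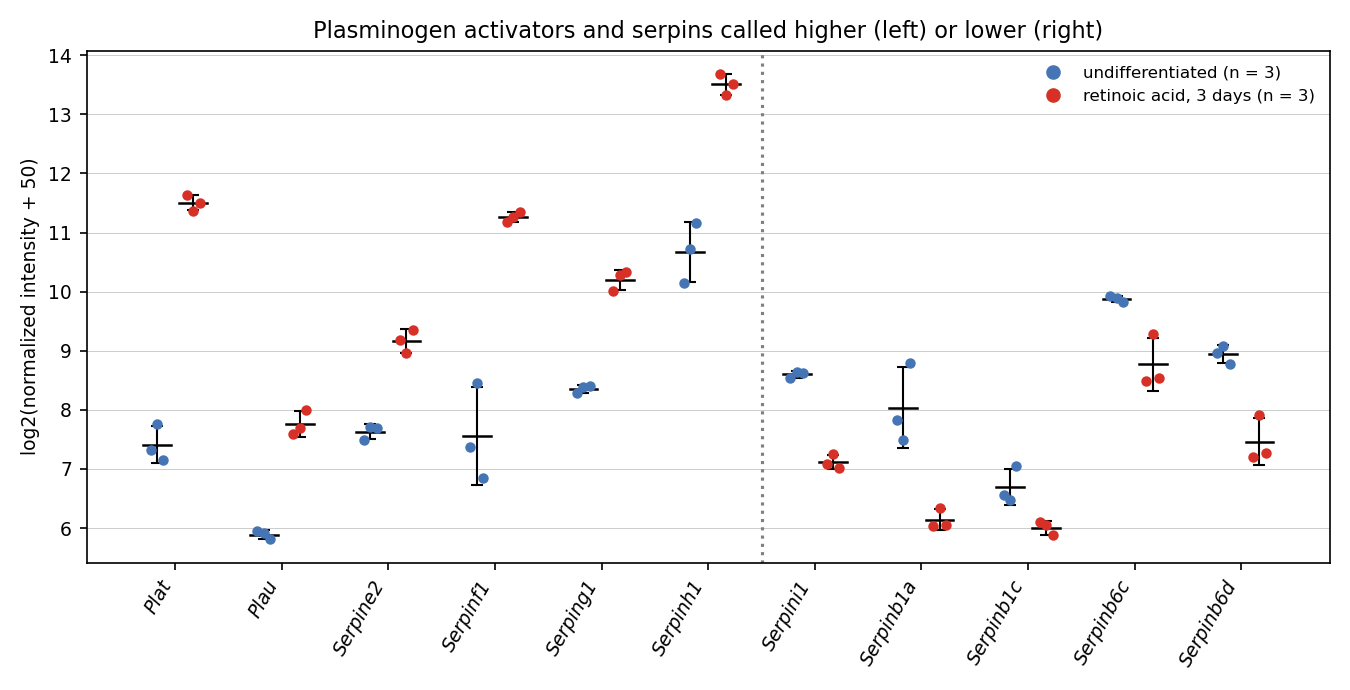
Levels, as log2 of normalized intensity plus 50, of the plasminogen activators and serpins shown that were called higher (left of the dotted line) or lower (right), with 1 point per sample, blue for undifferentiated and red for 3 days of retinoic acid, and bars for the mean and SD of 3 samples. The red points of Plat lie between 11.37 and 11.63 against 7.15 to 7.76 for the blue points, and in none of the 11 genes shown do the colours overlap.

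Serpinf2, which encodes alpha2-antiplasmin, the main plasma inhibitor of plasmin, had the widest spread of the serpins tested. It read 10.25, 13.21 and 11.41 in undifferentiated samples and 13.70, 11.03 and 12.51 after retinoic acid, a difference of 0.79 ± 0.84 (limma adjusted p = 0.527) with a 95% interval of -1.16 to 2.74. High and low samples occurred in both groups. Placing the 6 samples from low to high gave undifferentiated 1, retinoic acid 2, undifferentiated 3, retinoic acid 3, undifferentiated 2 and retinoic acid 1, which is exactly the order of the brighter Plaur probe. In all, 28 of the 15325 genes tested (0.183%) had this order, and of the 28 only Plaur and Serpinf2 are members. A range over 2 log2 units was found for 22 of the 28. Such a range with overlapping groups, in any order, was found for 308 of all genes tested. This likeness was looked for after the values of both genes had been seen.

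**Figure D2:**
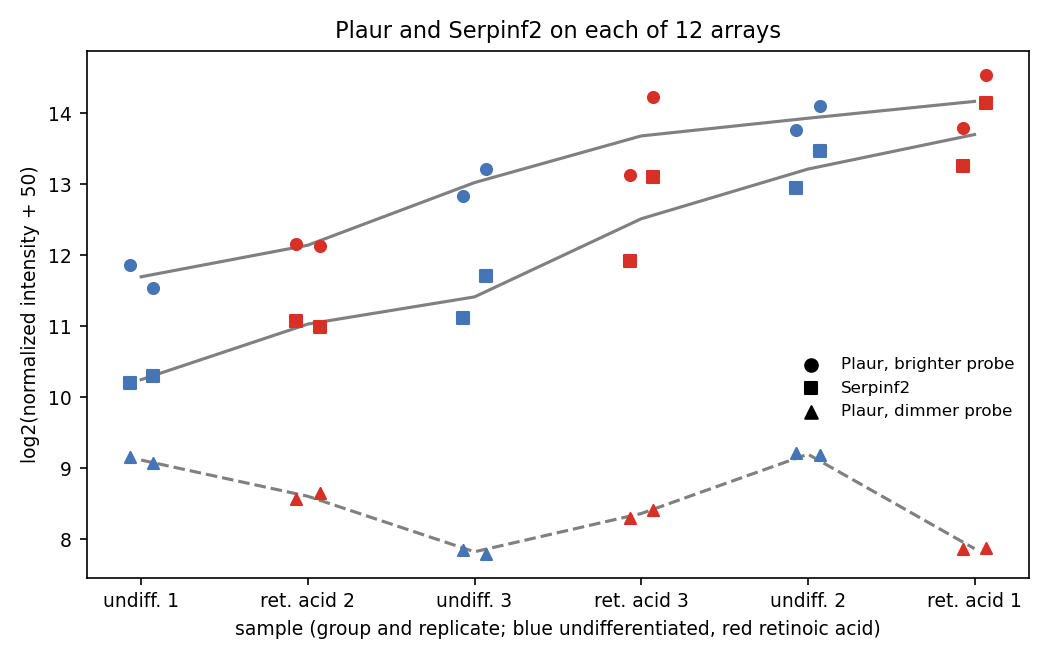
Levels of the brighter Plaur probe (circles), Serpinf2 (squares) and the dimmer Plaur probe (triangles) on each of 12 arrays, as log2 of normalized intensity plus 50, with samples ordered by the brighter Plaur probe, 2 arrays per sample and lines through the sample means. Circles and squares climb together from 11.70 to 14.17 and from 10.25 to 13.70, with both colours along the whole order, while the triangles do not follow it.

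The technical arrays repeated most of this order. For retinoic acid replicate 1 they read 13.79 and 14.54 for Plaur and 13.26 and 14.15 for Serpinf2. The widest gap between arrays was in retinoic acid replicate 3, at 13.13 and 14.23 for Plaur and 11.93 and 13.10 for Serpinf2. On the second array Plaur in that sample lay above undifferentiated replicate 2 (14.10), so the exact order of Plaur held on technical array 1 and not on technical array 2, while that of Serpinf2 held on both. The source of the spread was not tested.

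Serpinc1, Serpind1 and the genes of clade A, several of which are known from blood plasma, were too dim to be tested or were not called. Serpinc1, or antithrombin, read 7.28, 7.94 and 7.08 before and 6.94, 7.42 and 7.04 after, a difference of -0.30 ± 0.25 (limma adjusted p = 0.419, 95% interval -0.88 to 0.29). Serpind1, or heparin cofactor II, exceeded the limit on no array. Clade A holds 22 genes, among them alpha1-antitrypsin and antichymotrypsin relatives, and 3 of these were tested with none called by limma (0 also at an unadjusted p under 0.05). None of the 4 Serpina1 genes was bright enough to be tested, and of the 10 Serpina3 genes only Serpina3j (0.10) and Serpina3m (-0.16) were. The third clade A gene tested, Serpina10, differed by 0.04. Hepatocytes make most plasma serpins, and of 8 hepatocyte markers 3 were tested. Ahsg, a plasma glycoprotein gene, fell by 2.23, and Apoa2 (-0.01) and Hnf4a (-0.03) were not called. Of the untested ones, Ttr exceeded the limit on no array and Alb on 1.

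Clade B serpins stay inside the cell and guard it against stray proteases. Of the 26 clade B genes 10 were tested. By limma 4 were called lower (40%, against 13.6% of all genes tested). None was called higher (against 18.7%), also at an unadjusted p under 0.05. Of the 10 tested, 4 passed the filter only through the undifferentiated arrays: Serpinb1a and Serpinb1c, which fell, and Serpinb1b and Serpinb3d. The filter thus let in genes that were high before retinoic acid. Serpinb1a, an inhibitor of neutrophil elastase, went from 7.83, 7.48 and 8.80 to 6.04, 6.34 and 6.05, a difference of -1.89 ± 0.32 (limma adjusted p = 0.00325). After retinoic acid its probe exceeded the limit on 2 of 6 arrays, so the fall is understated on this scale. Undifferentiated replicate 3 was the highest sample, and the groups did not overlap.

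Both near-identical relatives of Serpinb1a pointed down from lower starting levels. Serpinb1c went from 6.57, 6.47 and 7.04 to 6.09, 6.05 and 5.87, a difference of -0.69 ± 0.19 (limma adjusted p = 0.0276), and its second probe differed by -0.42 and was not called. Serpinb1b, at 6.24, 6.01 and 6.44 before and 5.79, 5.94 and 5.90 after, differed by -0.35 ± 0.16 and was not called (limma adjusted p = 0.142), although its groups did not overlap. Undifferentiated replicate 3 was the highest sample for all 3 genes. The Serpinb1c call was lost in 8 of the 20 alternatives that gave a value for it, including each omission of a retinoic acid sample (adjusted p = 0.0673, 0.0587 and 0.112) and of undifferentiated replicate 1 (adjusted p = 0.0532). With the replicate number as a block its adjusted p was 0.0513.

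In the Serpinb6 family, whose founder blocks trypsin-like proteases and cathepsin G, 2 of 4 genes fell (50%, against 13.6% of all genes tested). Serpinb6d went from 8.97, 9.07 and 8.78 to 7.20, 7.92 and 7.26, a difference of -1.48 ± 0.22 (limma adjusted p = 0.00185). Serpinb6c went from 9.93, 9.90 and 9.82 to 8.48, 9.29 and 8.54, a difference of -1.11 ± 0.23 (limma adjusted p = 0.00823). In both, retinoic acid replicate 2 stayed closest to the undifferentiated samples without reaching them. Serpinb6a showed the same sample as its exception: it read 11.62, 11.62 and 11.48 before and 10.96, 11.55 and 10.92 after, and retinoic acid replicate 2 lay within the undifferentiated range. Its difference of -0.43 ± 0.20 was not called (limma adjusted p = 0.146, 95% interval -0.89 to 0.04). Without retinoic acid replicate 2 it was -0.63 (adjusted p = 0.0304), and with each array scaled to its 75th percentile it was -0.70 (adjusted p = 0.0444). Serpinb6b read 6.71, 7.08 and 6.65 before and 6.59, 7.09 and 6.89 after, a difference of 0.04 ± 0.20.

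The 7 Serpinb9 genes, inhibitors of granzyme B and its kin, were all too dim to be tested, and Serpinb9b exceeded the limit on no array. In RefSeq gene order (assembly GRCm38.p6) 14 clade B genes from Serpinb1a to Serpinb6a form 1 cluster, allowing at most 3 other genes between neighbours. Of this cluster 7 genes were tested. The 4 that fell were Serpinb1a and Serpinb1c at places 1 and 2, and Serpinb6d and Serpinb6c at places 12 and 13. Serpinb6b at place 3, Serpinb1b at place 6 and Serpinb6a at place 14 were tested and not called. The Serpinb9 genes fill places 4, 5 and 7 to 11 and were not tested. Which places could hold a call was thus mostly set by which probes were bright enough, and no conclusion is drawn from the positions. The second clade B cluster, 12 genes from Serpinb5 to Serpinb8, had 3 genes tested and none called by limma: Serpinb3c (-0.08), Serpinb3d (-0.24) and Serpinb7 (0.30). Serpinb7 was called higher, at 0.75 (limma adjusted p = 0.0145), when technical array 2 alone was used. On technical array 1 it read 5.95, 6.62 and 5.74 before and 5.85, 6.12 and 5.89 after, so the groups overlapped and that array showed no rise.

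**Figure D3:**
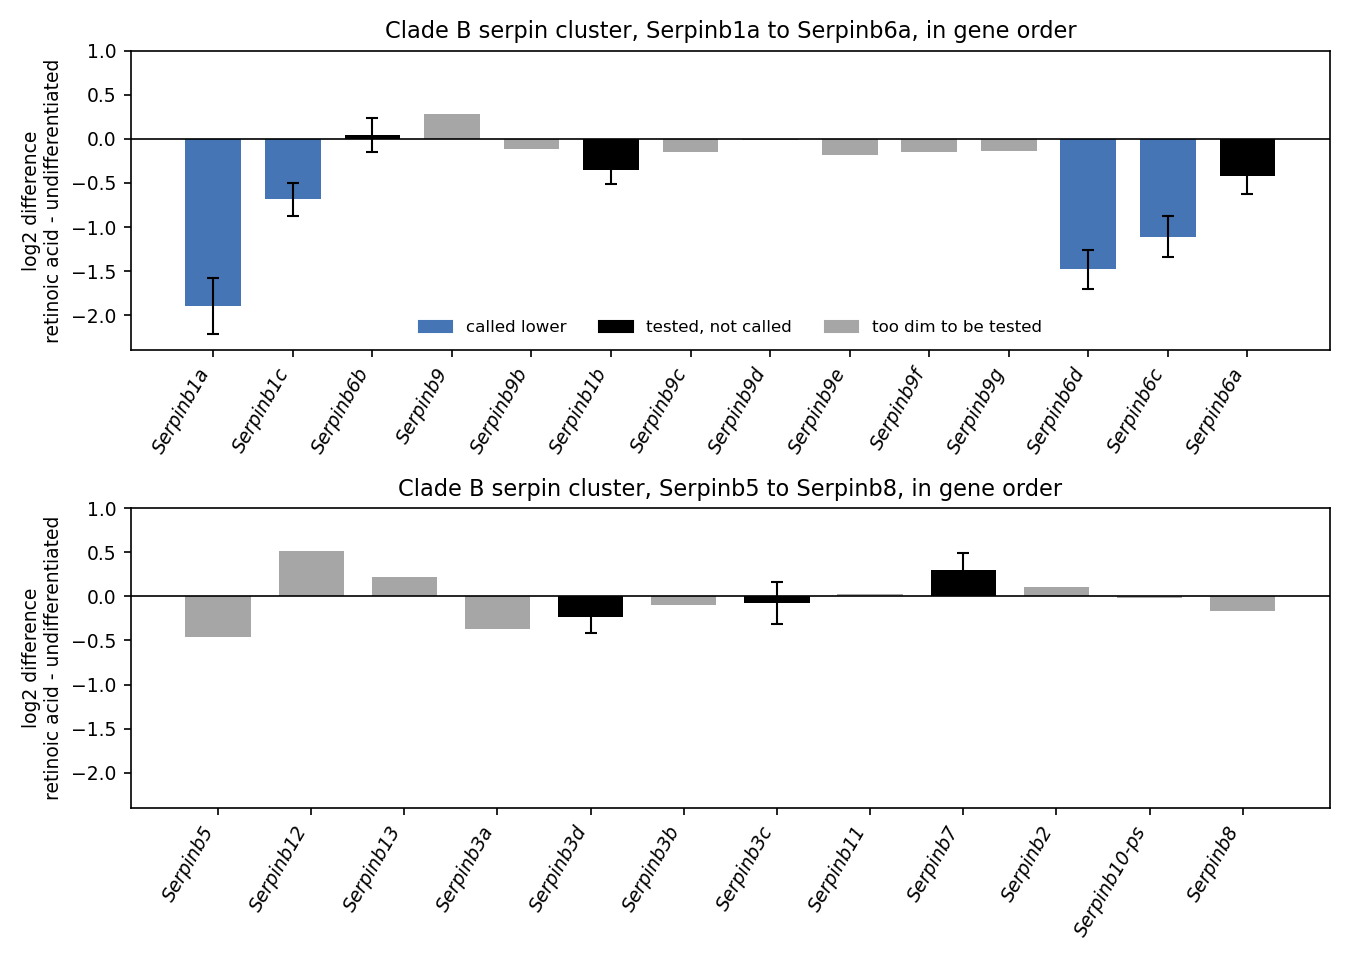
Difference in log2(normalized intensity plus 50), retinoic acid minus undifferentiated, for the clade B serpins in RefSeq gene order, in the cluster of 14 genes (top) and the cluster of 12 genes (bottom), with error bars of 1 standard error for tested genes. Blue bars (called lower) stand toward both ends of the upper cluster, from -1.89 for Serpinb1a to -0.69 for Serpinb1c. Most genes between them are untested Serpinb9 genes (grey). The lower cluster has no blue bar, and grey bars of untested genes prevail there.

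Klk1 and 3 of its copies led the kallikreins that fell, and the windows upstream of these genes are shown here since the genes are neighbours with related sequence. Each is the 250 bases before the transcription start from RefSeq (GRCm38.p6), printed 5′ to 3′ on the gene's strand: chr7:44225110-44225359 for Klk1, chr7:44197941-44198190 for Klk1b3, chr7:44207183-44207432 for Klk1b4 and chr7:43950416-43950665 for Klk1b8, all on the plus strand. Capitals mark AGGTCA, read on either strand (TGACCT on the other), the half-site that retinoic acid receptors and many other nuclear receptors bind.

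Klk1: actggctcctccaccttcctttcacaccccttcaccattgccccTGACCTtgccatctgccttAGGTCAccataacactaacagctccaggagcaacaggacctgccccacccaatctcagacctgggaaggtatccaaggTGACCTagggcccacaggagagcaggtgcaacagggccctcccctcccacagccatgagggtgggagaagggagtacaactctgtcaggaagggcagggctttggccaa

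Klk1b3: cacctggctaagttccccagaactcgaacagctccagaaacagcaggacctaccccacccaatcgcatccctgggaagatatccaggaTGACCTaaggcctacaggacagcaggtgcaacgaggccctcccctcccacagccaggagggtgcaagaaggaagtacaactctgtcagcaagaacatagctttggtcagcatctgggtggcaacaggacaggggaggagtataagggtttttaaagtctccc

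Klk1b4: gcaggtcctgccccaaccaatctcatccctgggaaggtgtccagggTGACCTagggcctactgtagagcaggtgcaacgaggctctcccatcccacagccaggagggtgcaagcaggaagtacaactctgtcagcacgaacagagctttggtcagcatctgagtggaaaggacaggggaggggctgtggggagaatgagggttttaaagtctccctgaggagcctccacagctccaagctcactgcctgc

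Klk1b8: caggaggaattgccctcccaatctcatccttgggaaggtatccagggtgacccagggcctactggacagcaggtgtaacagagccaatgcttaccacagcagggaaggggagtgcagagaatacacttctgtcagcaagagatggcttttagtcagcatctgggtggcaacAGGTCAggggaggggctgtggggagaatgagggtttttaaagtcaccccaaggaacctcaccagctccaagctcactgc

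Klk1 has 3 matches, at positions -206, -187 and -109 from the start, and the others 1 each, at -162 in Klk1b3, -204 in Klk1b4 and -79 in Klk1b8. The 6 letters occur in 14.02% of all 32851 RefSeq promoter windows of this length, in 26 of 83 windows of member genes and in 8 of 14 windows of called members. The 8 include the windows of the 4 kallikreins shown, which are related in sequence and not independent. Direct repeats of the half-site spaced by 5 or by 2 bases are the arrangements known as DR5 and DR2. Only repeats of the exact letters were searched, and half-sites with other letters were not. Exact repeats occur in 3 windows each of all 32851 and in no member window. At so low a share the 83 member windows could hardly hold 1, so this count cannot show whether members have such elements. A match is a description of the letters and not of binding. The 4 windows are 73.4% to 85.3% identical to each other (median 81.4%) over 155 to 255 aligned positions. Against the other Klk1b genes, which were too dim or not called, their identity is 75.4% to 85.4% (median 78.7%), and against Klk8 and Klk10 it is 51.0% to 58.5%. The ranges within the 4 and against the other Klk1b copies overlap almost fully.

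Klk1 encodes tissue kallikrein, the protease that frees kinin peptides from kininogen. It stood at 8.93, 8.42 and 8.76 in undifferentiated samples and at 5.97, 6.06 and 5.89 after retinoic acid, a difference of -2.73 ± 0.18 (limma adjusted p = 3.68e-05). The probe exceeded the limit on all 6 undifferentiated and on none of the 6 retinoic acid arrays, so Klk1 was at least 15.0-fold lower, a bound set by the mean normalized intensity against the lowest signal above the limit. The groups were more than 2 log2 units apart.

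Klk1b3 and Klk1b4 encode the gamma and alpha subunits of the nerve growth factor complex of the mouse salivary gland. The Klk1b3 probe with the higher mean log2 over all arrays went from 8.25, 8.05 and 7.98 to 6.99, 7.16 and 6.97, a difference of -1.05 ± 0.15 (limma adjusted p = 0.00158). The second Klk1b3 probe, which was the brighter one in each undifferentiated sample and has the higher mean intensity, went from 8.84, 8.43 and 8.78 to 5.96, 6.60 and 6.0, a difference of -2.50 that was also called. The choice of probe thus moves the Klk1b3 difference from -2.50 to -1.05. Both probes fell in all 3 samples, and they differed in size by more than 1 log2 unit. Klk1b4 went from 7.52, 7.79 and 7.49 to 5.90, 6.67 and 6.12, a difference of -1.37 ± 0.22 (limma adjusted p = 0.00276), with 3 of 6 retinoic acid arrays above the limit. In RefSeq gene order Klk1b3, Klk1b4 and Klk1 are the last 3 genes of the cluster of 24.

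Klk1b8 lies farther from Klk1 in the same cluster. It went from 7.70, 8.05 and 7.72 to 6.67, 7.12 and 6.68, a difference of -1.0 ± 0.19 (limma adjusted p = 0.00551), without overlap. The fourth Klk1b gene tested, Klk1b9, differed by -0.22 and was not called. In undifferentiated replicate 3 the technical arrays of Klk1b9 read 6.20 and 7.55, so this difference leans on 1 array. The other 8 of the 12 Klk1b genes were too dim. The scanner tables give no probe sequences, so whether probes named for Klk1 and the Klk1b copies each read 1 transcript was not tested. The same holds for the Serpina1, Serpina3, Serpinb1, Serpinb3, Serpinb6 and Serpinb9 relatives.

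Klk10, outside the Klk1 branch, fell least of the kallikreins called. It went from 7.52, 7.49 and 7.09 to 6.35, 6.99 and 6.56, a difference of -0.74 ± 0.22 (limma adjusted p = 0.0335). The lowest undifferentiated sample was only just above the highest retinoic acid sample, and the call did not survive the omission of undifferentiated replicate 1 (adjusted p = 0.108) or 2 (0.0733), or of retinoic acid replicate 1 (0.123) or 3 (0.114).

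Klk8, or neuropsin, a protease of the brain and skin, read 10.56, 10.67 and 9.87 in undifferentiated samples and 10.03, 9.66 and 9.97 after retinoic acid. The difference of -0.48 ± 0.24 was not called (limma adjusted p = 0.17, 95% interval -1.03 to 0.08), since undifferentiated replicate 3 lay among the retinoic acid samples. Without that sample the difference was -0.73 (adjusted p = 0.0216). Klk6, or neurosin, was too dim to be tested. Of the other kallikreins outside the Klk1 branch that were tested, Klk4 (0.12), Klk7 (-0.15), Klk9 (0.00) and Klk15 (-0.09) were not called. Klk14 read 5.93, 6.03 and 5.96 before and 6.33, 6.21 and 6.24 after, a difference of 0.29 ± 0.14 without overlap that was not called (limma adjusted p = 0.157). With 1 or 10 added before log2 in place of 50 it was called higher, at 1.0 and 0.68.

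**Figure D4:**
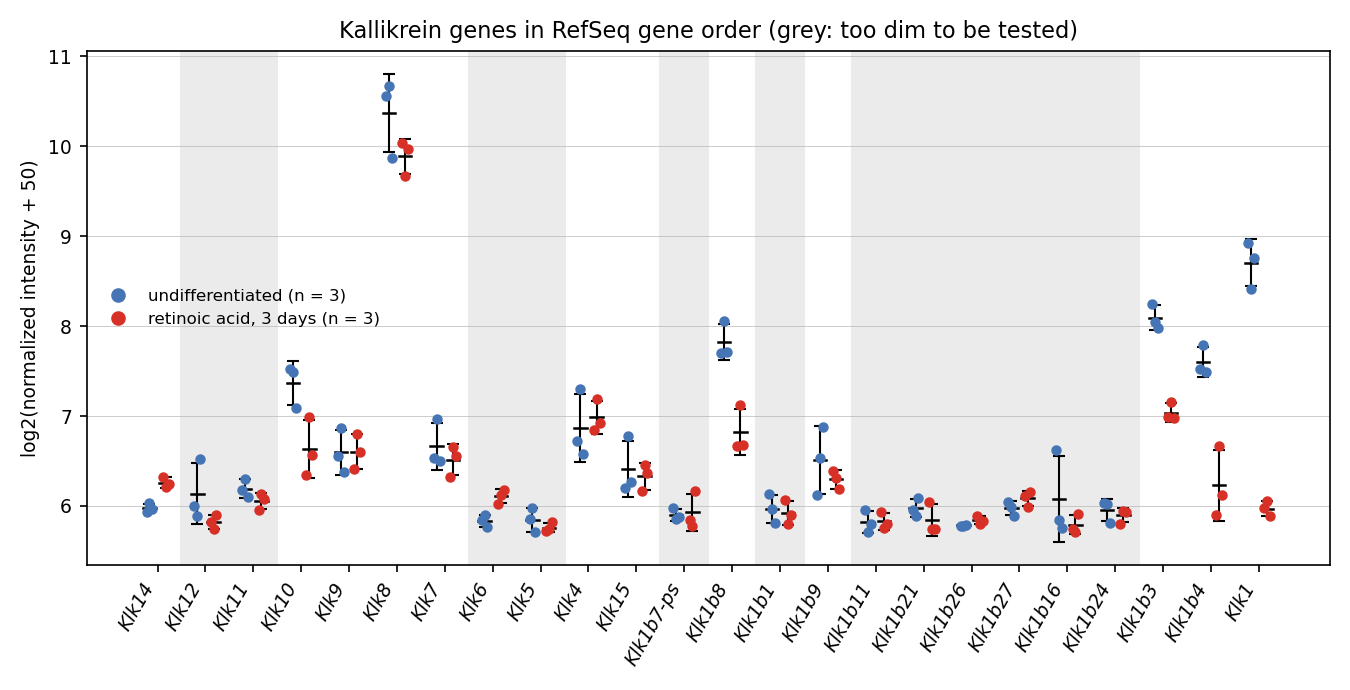
Levels of the 24 kallikrein genes in RefSeq gene order, as log2 of normalized intensity plus 50, with 1 point per sample, blue for undifferentiated and red for 3 days of retinoic acid, bars for the mean and SD of 3 samples, and grey bands for genes too dim to be tested. The last 3 genes, Klk1b3, Klk1b4 and Klk1, have blue points between 7.49 and 8.93 and red points between 5.89 and 7.16.

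Set out by position, the members that rose lay outside the gene clusters, and most of those that fell lay inside them. The 4 clusters of serpins and kallikreins (2 of clade B, 21 genes from Serpina10 to Serpina3n, and the 24 kallikreins) held 9 of the 11 members that fell and none of those that rose. The 15 genes outside these clusters had 11 tested, of which 6 rose (Plat, Plau, Serpine2, Serpinf1, Serping1 and Serpinh1) and 2 fell, Serpini1 among them. Tested in the clusters were 7 and 3 genes of clade B, 3 of clade A and 12 kallikreins. Of all genes tested 18.7% were called higher and 13.6% lower. Of those that fell, Klk1, Klk1b4, Serpinb1a and Serpinb1c passed the filter only through the undifferentiated arrays. Of those that rose, Plau passed it only through the retinoic acid arrays. Members of a cluster are copies of each other and not independent. Serpinf1 and Serpinf2 are neighbours, and Serpinf1 rose while Serpinf2 had the order of samples described above.

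The upstream windows of 3 of the genes that rose are shown for comparison. Which genes to show and which letters to mark in each were chosen by hand, and each window shown holds its marked letters. They lie at chr11:75422624-75422873 for Serpinf1, chr1:79858666-79858915 for Serpine2 and chr7:99353240-99353489 for Serpinh1, all on the minus strand of GRCm38.p6, from RefSeq. Capitals mark AGGTCA on either strand in Serpinf1, and GGGCGG, the GC box bound by Sp1, on either strand in Serpine2 and Serpinh1.

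Serpinf1: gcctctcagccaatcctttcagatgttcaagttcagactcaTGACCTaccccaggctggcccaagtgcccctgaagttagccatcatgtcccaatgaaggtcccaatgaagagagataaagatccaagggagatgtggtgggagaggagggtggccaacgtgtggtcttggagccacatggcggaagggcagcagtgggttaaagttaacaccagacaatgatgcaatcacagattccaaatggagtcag

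Serpine2: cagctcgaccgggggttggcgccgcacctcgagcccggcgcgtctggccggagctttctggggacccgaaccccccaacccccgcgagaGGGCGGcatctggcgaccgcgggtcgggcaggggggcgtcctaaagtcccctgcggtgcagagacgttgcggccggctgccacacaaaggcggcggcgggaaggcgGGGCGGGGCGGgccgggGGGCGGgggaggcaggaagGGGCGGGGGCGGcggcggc

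Serpinh1: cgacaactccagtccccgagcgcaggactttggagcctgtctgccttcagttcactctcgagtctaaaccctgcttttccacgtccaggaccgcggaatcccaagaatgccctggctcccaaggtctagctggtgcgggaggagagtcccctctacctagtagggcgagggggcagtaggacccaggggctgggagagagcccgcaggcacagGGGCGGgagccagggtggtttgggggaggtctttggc

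The Serpinf1 window has 1 half-site, at -209, and the Serpine2 and Serpinh1 windows shown have none. The Serpine2 window is 78.8% G or C with 34 CpG pairs and 6 GC boxes, some of which share letters, and the Serpinh1 window is 63.6% G or C with 1 GC box. GGGCGG occurs in 32.7% of all 32851 windows, in 12 of 83 member windows and in 3 of 14 windows of called members. The windows of the 4 kallikreins shown have 0 to 3 CpG pairs each. Promoter windows were found for 72 of the 86 members and for 12 of the 17 called ones.

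The other genes of the plasminogen system were called in both directions. Of 26 tested partners of plasminogen and its activators 8 were called higher (30.8%, against 18.7% of all genes tested), 1 lower (3.85%, against 13.6%) and 17 neither, with a median of 0.30 beside 0.0036 over all genes tested. Itga3, an integrin chain of the complexes that the urokinase receptor joins, rose by 3.20 ± 0.21, Sort1, or sortilin, a sorting and uptake receptor, by 2.52 ± 0.22, and Mmp2, a matrix-degrading gelatinase, by 2.0 ± 0.25. S100a10, which forms a plasminogen-binding complex with annexin A2, fell by 0.47 ± 0.15, and Anxa2, which encodes annexin A2, rose by 1.32 ± 0.19. Plg itself, the substrate of Plat and Plau, exceeded the limit on 1 array of each group and was not tested.

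Among 11 tested coagulation genes 2 rose (18.2%, near the 18.7% of all genes tested) and 4 fell (36.4%, against 13.6%), with a median of -0.50. F3, or tissue factor, which starts clotting, rose by 1.44 ± 0.23 and the thrombin receptor F2r by 1.205 ± 0.25. F2rl1, a receptor cut by trypsin-like proteases, fell by 2.18 ± 0.29, Vwf, which carries factor VIII, by 1.83 ± 0.41, and Tfpi, which blocks tissue factor, by 0.95 ± 0.20.

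Of 20 tested protease inhibitors outside the serpins 7 rose (35.0%, against 18.7% of all genes tested) and 2 fell (10%, against 13.6%), with a median of 0.36. Timp2, an inhibitor of matrix metalloproteases, rose by 3.12 ± 0.17, Itih5 by 1.49 ± 0.29 and Timp3 by 1.10 ± 0.20. Timp1 fell by 0.93 ± 0.22. A2m, the broad protease trap alpha2-macroglobulin, was at least 5.76-fold lower after retinoic acid, where no array exceeded the limit.

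Of 22 tested serine and lysosomal proteases 11 rose (50%, against 18.7% of all genes tested) and 2 fell (9.09%, against 13.6%), with a median of 0.66. Prss23 rose by 4.68 ± 0.25, the epithelial protease Prss8 by 1.96 ± 0.50 and Tmprss2 by 1.81 ± 0.21, while the proprotein convertase Pcsk6 fell by 1.23 ± 0.20 and Htra1 by 1.09 ± 0.27. Of 23 tested genes of collagens and their folding, the clients and partners of Serpinh1, 13 rose (56.5%, against 18.7%) and the other 10 were not called, with a median of 0.81. Col1a2 rose by 3.39 ± 0.19, Col4a2 by 3.12 ± 0.29 and Col4a1 by 2.67 ± 0.30.

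Markers of other cell types moved with the treatment, and their part in the results above was not tested. Of 13 tested markers of parietal and visceral endoderm 7 rose (53.8%, against 18.7% of all genes tested) and 1 fell (7.69%, against 13.6%). The summed intensity of that list was 29290 to 34952 in undifferentiated samples and 34277 to 38249 after retinoic acid. Rhox5 made the largest part of that sum (geometric mean intensity 25957 before and 18012 after) and was not called. Gata6 rose by 4.11, Sox17 by 3.78 and Sox7 by 2.07, and Lama1 fell by 0.52. Afp, Apob, Foxa2 and Gata4 were not called, and Ttr exceeded the limit on no array. Of 12 tested trophoblast markers 7 rose (58.3%, against 18.7% of all genes tested) and 1 fell (8.33%, against 13.6%), with Elf5 above the limit on no array. The summed intensity of the trophoblast list was 4603 to 6504 before and 49322 to 58028 after. Most of that sum came from the keratins Krt18 (geometric mean intensity 1165 before and 33507 after) and Krt8 (625 and 16977), while Tfap2c fell by 3.08 and Ascl2, Eomes, Hand1 and Prl3d1 were not called. Of 9 tested fibroblast markers 5 rose (55.6%, against 18.7%) and 1 fell (11.1%, against 13.6%), with Postn above the limit on no retinoic acid array. The summed intensity of the fibroblast list was 1696 to 2198 before and 15842 to 16684 after. Most of that sum came from the actin-binding Tagln (geometric mean intensity 297 before and 13306 after), while Thy1 fell by 2.07 and Col1a1, Pdgfra and S100a4 were not called.

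Leukocytes, epithelial glands and liver are tissues known for several serpins and kallikreins. No tested marker on the lists for leukocytes, for keratinocytes and glands, or for hepatocytes was called higher by limma. The simple epithelial keratins Krt7, Krt8 and Krt18, which were listed with trophoblast, rose by 4.20, 4.65 and 4.78. Of 5 tested leukocyte and mast cell markers Cd68 fell and the others were not called, with Lyz2 above the limit on no array (summed intensity 1660 to 1971 before and 1286 to 1533 after). Of 5 tested markers of keratinocytes and glands none was called in either direction (569 to 1210 before and 532 to 833 after). The summed intensity of the hepatocyte list was 293 to 696 before and 131 to 182 after.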

How the data were processed

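Total RNA of 3 undifferentiated and 3 retinoic acid samples was measured on 12 arrays, 2 per sample. The deposited scanner tables give net mean intensity on a linear scale, per the file headers. The method of background subtraction, the probe sequences and the genome build are not given in the sources used here. R 2.15.0 and limma appear in the submitters' processing notes. The authors' value table of processed intensity correlated with the quantile-normalized values and served as an alternative.

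Intensities were quantile-normalized, 50 was added and log2 taken. Of each gene the probe with the highest mean was kept, technical arrays were averaged, and samples were compared with limma 3.58.1 in R 4.3.3 (two-sided, no covariates, Benjamini-Hochberg over 15325 genes). The background limit rests on 27 negative control spots per array. For a fold given as "at least", the dim group's signal on each array was raised to that array's lowest signal past the limit where it lay under it. The fit was tested on simulated data. Python 3.11.15, biopython 1.88 and matplotlib 3.10.9 served for sequences and plots. A promoter pair was aligned with free end gaps.

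Members and gene lists were chosen with earlier results of these data known. Named genes are all called members, members with a known role fixed in a list, members whose probes differ by at least 1 in log2, and of other lists up to 3 called genes per direction with the largest differences. Anxa2 and the cell type markers named were picked after their values were seen. Alternatives covered scaling, filter, probe, technical array, added value, spread estimate, threshold, replicate block, the authors' values and leaving out each sample. The number of arrays limits the precision. The values of 1 serpin that is included in the counts are not reported here.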

Additional observations from a re-analysis of the deposited data

How the results depend on the processing

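Of the 17 called members, 15 kept their call in every one of the 21 alternatives that gave a value; Klk10 and Serpinb1c did not, and no member reversed. At an adjusted p under 0.01 the genes called fell to 1784 higher and 1113 lower. With the filter requiring all 12 arrays, 2 kallikreins were called lower and 1 plasminogen activator higher, since fewer genes are tested; the second brightest probe also left 1 plasminogen activator called higher. With 1 or 10 added before log2, 1 kallikrein (Klk14) was called higher. Leaving out 1 sample at a time gave 2007 to 3148 genes higher and 1227 to 2107 lower, with the lowest counts, 1325 and 1227 lower, without retinoic acid replicate 1 and 3; it left 4 serpins higher throughout, 5 to 6 lower, and 4 to 6 kallikreins lower. The cause of these shifts was not tested.

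Scaling each array to its 75th percentile or median moved the median of all genes to -0.09 and -0.06 and the share of calls that were higher from 58.0% to 48.0% and 51.4%. Samples with the same replicate number correlated at -0.06, 0.22 and 0.07 in their deviations, and some pairs with different numbers correlated higher (up to 0.26). With 3 samples per group these values cannot show whether the replicate number pairs the samples, and the main fit did not pair them. With the number as a block 2849 genes were called higher, 2039 lower and 5 serpins lower, with Serpinb1c lost. Signal over background was too low to test 50 of the 86 members.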

Other observations

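Several untested members, and the tested Klk1b9 as described above, stood well above their usual level on 1 of the 2 technical arrays of 1 sample. Serpinb12, an epithelial clade B serpin, read 5.72 and 8.90 on the arrays of retinoic acid replicate 1, and Serpinb13 read 5.66 and 7.77 there. Serpinb5, or maspin, read 7.92 and 6.19 in undifferentiated replicate 3. Serpina4-ps1 read 5.81 and 7.63 in retinoic acid replicate 3, and Serpina1c read 6.98 and 5.92 in undifferentiated replicate 1. The other array of each of these samples was near background.

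Beside Plaur and Serpinf2, genes with the same order of the 6 samples included Sh2b3, Phlpp2, Gsto2, Pthlh, Avpr2, Igfbp5 and Krt16, and none of the 28 was called. In Sh2b3 the levels ran from 8.53 in undifferentiated replicate 1 to 12.49 in retinoic acid replicate 1, and in Pthlh from 10.87 to 14.07. Of all genes tested, 308 had a range over 2 log2 units and overlapping groups.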
